A study of Caenorhabditis elegans with 2 samples.

Results

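The regions described here are the places near transfer RNA (tRNA) genes that a chromatin immunoprecipitation sequencing (ChIP-seq) experiment on the nuclear hormone receptor NHR-11 listed as candidates for binding in Caenorhabditis elegans. A candidate region was included when its summit lay inside, or within 500 bases of, an annotated nuclear tRNA gene. This gave 261 of the 30000 regions of the candidate list made from both replicates pooled. Of these, 110 were of unique sequence, meaning that at least 90% of their 31-base words occurred once in the genome, and 151 were of repeated sequence. The distance rule and the sequence classes used no signal value.

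There was 1 group of 2 biological replicates: whole animals of strain OP305 at the L3 larval stage, with males and females pooled. The strain carries the unc-119(ed3) mutation on chromosome III and the integrated transgene wgIs305, which supplies nhr-11 fused to GFP; every value below comes from this genotype. The labels do not state the promoter or copy number of the transgene. The antibody is labelled by the receptor and the experiment by the tagged protein, so which epitope was pulled down is not settled. Whole animals mix all tissues, so a region bound in few cells and a region bound weakly in many cannot be told apart. Neither the control library nor any second condition was analysed here.

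tRNA genes are short genes transcribed by RNA polymerase III. Their promoter lies inside the transcribed sequence: the factor TFIIIC binds an A box and a B box within the gene and places TFIIIB just upstream of it, and transcription ends at a run of T on the coding strand. Nuclear hormone receptors are zinc-finger transcription factors studied chiefly at genes transcribed by RNA polymerase II, and many of them bind AGGTCA-like half-sites.

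The unit throughout is the peak signal value that the authors' caller gave each region. Its scale is not stated, so it was used to rank regions within a list. Percentiles run from 0 for the weakest region of a list to 100 for the strongest. A region is called reproducible when it is in the authors' list kept after the irreproducible discovery rate (IDR) filter, which compares ranks between replicates. That list held 1030 regions, which were the 1030 strongest of the pooled list, and its weakest had a signal of 54.9. Being reproducible here therefore equals a pooled rank within the first 1030. It is no measure separate from the pooled signal, and a reproducible region can rank low in 1 replicate. The files hold no read counts, so depth is unknown. Intervals given below are 95% Wilson intervals and cover counting error only. With 1 group, no test between conditions exists, and no p-value is given.

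The 7 tRNA genes shown here, each near a region described below, are examples of several isotypes and include 1 pair of identical copies. They are not the 7 genes with the strongest regions: T10B9.t1, for one, is near no reproducible region. The sequences are those of the annotated genes read 5′ to 3′ on their own strand from the ce11 genome, and the capitals mark an A box word (TGGNNNAG or TAGNNNAG) and a B box word (GGTTCGA) where a gene holds them.
C18A11.t2, tRNA-Arg, chrX:8036685-8036757, minus strand: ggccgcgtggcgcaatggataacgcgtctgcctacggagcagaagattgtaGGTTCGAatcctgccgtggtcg
R04A9.t1, tRNA-Gln, chrX:410391-410462, plus strand: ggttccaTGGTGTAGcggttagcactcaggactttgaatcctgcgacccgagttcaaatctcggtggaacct
C10G8.t1, tRNA-Gln, chrV:5330139-5330210, minus strand: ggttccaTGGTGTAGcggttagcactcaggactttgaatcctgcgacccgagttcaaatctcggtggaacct
C33G3.t2, tRNA-Lys, chrX:14063946-14064018, minus strand: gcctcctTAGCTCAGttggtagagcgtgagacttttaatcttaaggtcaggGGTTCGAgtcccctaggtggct
F46G11.t2, tRNA-Pro, chrX:5801211-5801282, minus strand: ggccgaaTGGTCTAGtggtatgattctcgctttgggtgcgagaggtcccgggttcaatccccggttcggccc
Y38E10A.t1, tRNA-Ala, chrII:12678314-12678385, plus strand: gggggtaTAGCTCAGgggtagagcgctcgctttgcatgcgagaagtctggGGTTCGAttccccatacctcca
T10B9.t1, tRNA-Lys, chrII:9773654-9773728, plus strand: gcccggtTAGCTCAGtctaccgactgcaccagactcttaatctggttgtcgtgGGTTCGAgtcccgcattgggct
The R04A9.t1 and C10G8.t1 genes, on X and on V, are letter for letter the same and belong to a family of 15 identical genes, which is why reads from inside such genes cannot always be placed. Over all 612 nuclear tRNA genes, an A box word was found in 83.5%, the B box word in 64.5%, and TTTT within 30 bases of the 3′ end in 98.9%. Among the 34 genes with a reproducible region within 500 bases, these shares were 88.2%, 67.6% and 100%. Among genes with no candidate region they were 82.1%, 68.2% and 98.3%. The box words and TTTT were therefore about as frequent at genes with a reproducible region as at genes with none. Only these exact words were counted, and their shares differ by isotype: the B box word was in 0% of Asp genes and 97.6% of Glu genes. A gene without a word is not thereby shown to lack the box.

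Candidate regions lay near 266 of the 612 nuclear tRNA genes, which is 43.5% of them. Their pooled signals ran from 19.4 to 394 with a median of 28.0, against a median of 24.8 over all 30000 regions. The median percentile was 67.5 in the pooled list, against 49.9 for the other 29739 regions. The same order held in each replicate: the median percentile was 74.7 in replicate 1, where 216 of the 261 had a region, against 61.4 over all pooled regions found there, and 73.4 in replicate 2, where 192 had one, against 62.0. Regions near tRNA genes thus lay above the middle of the list in both replicates.

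Of the 261 regions, 29 were reproducible, or 11.1% (interval 7.85 to 15.5%), against 1001 of the other 29739, or 3.37%. Over all candidates the share was 3.43%. Summits inside a tRNA gene were reproducible in 8 of 52 cases (15.4%), those 1 to 100 bases away in 14 of 97 (14.4%), those 101 to 250 bases away in 5 of 51 (9.80%) and those 251 to 500 bases away in 2 of 61 (3.28%). Between 501 and 1000 bases the share was 1.48% of 135 regions. The higher share was therefore a feature of the closest summits, and beyond 250 bases it was near that of all candidates.

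Unique and repeated regions gave different values. Of the 110 unique regions, 4 were reproducible (3.64%, interval 1.42 to 8.98%), close to the 3.36% of all unique candidates. Their median signal was 25.8 and their median percentile 56.1, against 50.4 for all unique candidates. Of the 151 repeated regions, 25 were reproducible (16.6%, interval 11.5 to 23.3%), against 5.35% of all repeated candidates. Their median signal was 31.6 and their median percentile 79.6, against 39.2 for all repeated candidates. By median percentile, the repeated class near tRNA genes was thus placed high in the list. Repeated candidates as a whole, which include these 151, were placed below the middle. Their reproducible share of 5.35% was still above the 3.43% over all candidates.

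The sequence class followed whether a region covered a tRNA gene. A tRNA gene was overlapped by 30 of the 110 unique and 149 of the 151 repeated regions. When the bases of tRNA genes were set aside, 255 of the 261 regions, 145 of them repeated ones, had at least 90% of their words found once. So the repeats were mainly the tRNA genes themselves, and the flanks were of sequence found once. With a limit of 75% in place of 90%, 96.6% of the 261 regions count as unique. Regions that overlapped a gene and were still of unique sequence were reproducible in 1 of 30 cases (3.33%) with a median percentile of 65.1. Regions that overlapped a gene and were repeated were reproducible in 25 of 149 cases (16.8%) with a median percentile of 79.7. Unique regions that overlapped no tRNA gene were reproducible in 3 of 80 cases (3.75%) with a median percentile of 50.3. Whether the placement of reads from identical genes contributed to the signal was not tested.

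**Figure D1:**
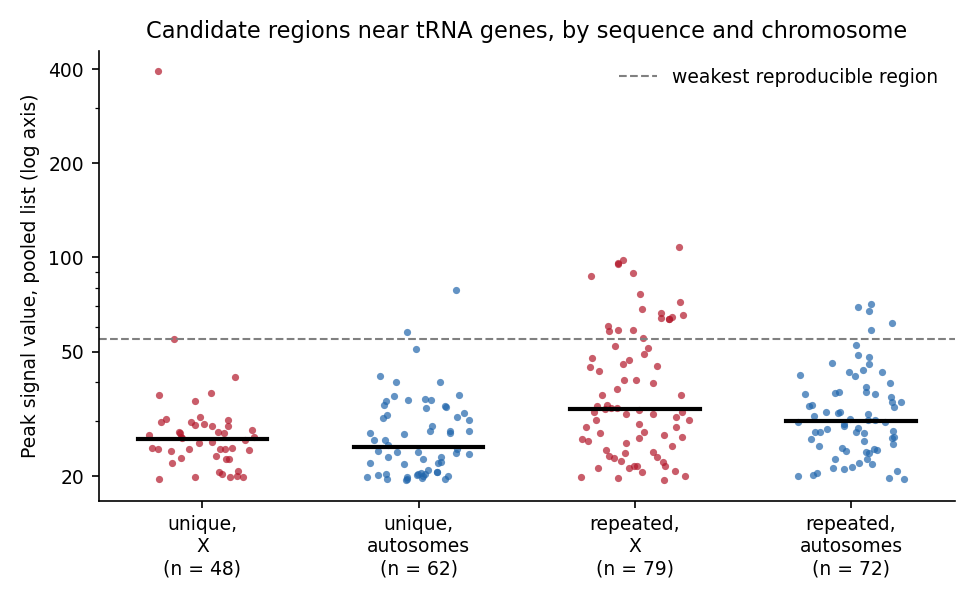
Pooled peak signal value (log axis) of the 261 candidate regions near tRNA genes, by sequence class and chromosome. Each point is 1 region, black lines are medians, and the dashed line is the weakest reproducible region at 54.9; repeated regions on X hold 20 of the 29 points at or above it.

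The 8 strongest repeated regions were all on X. The R04A9.t1 region (tRNA-Gln, chrX:410097-410452), in an intron of ZK1193.2, had a pooled signal of 108, the 217th strongest, with 53.7 in replicate 1 and 50.1 in replicate 2. The M02F4.t2 region (tRNA-Glu, chrX:3035927-3036282) had 98.4, with 55.6 in replicate 1 and 44.1 in replicate 2. The C33G3.t2 region (tRNA-Lys, chrX:14063874-14064229) had 95.7, with 59.1 in replicate 1 and 38.9 in replicate 2. Taken alone, each replicate also had all 3 within its first 1030, and their summits lay 116, 58 and 34 bases upstream of the gene.
The C42D8.t1 region (tRNA-Ile, chrX:5085455-5085810) had a signal of 94.99, with 58.3 in replicate 1 and 31.9 in replicate 2, and its summit inside the gene, 1107 bases upstream of ets-5, which encodes an ETS-family transcription factor. The C28G1.t1 region (tRNA-Glu, chrX:8835814-8836169) had 88.9, with 40.0 in replicate 1 and 54.7 in replicate 2. The F46G11.t2 region (tRNA-Pro, chrX:5801129-5801484) had 87.4, with 48.3 in replicate 1 and 38.7 in replicate 2. The last 2 of the 8 strongest repeated regions were at C53C7.t2 (tRNA-Ser), with 76.1 pooled, 49.6 in replicate 1 and 27.8 in replicate 2, and at F41D9.t3 (tRNA-Asn), in an intron of sulp-3, with 72.1 pooled, 36.6 in replicate 1 and 38.3 in replicate 2. Of these 8, the summit was upstream of the tRNA gene in 7, and C53C7.t2 ranked 1074th in replicate 2 while the others ranked within the first 1030 of both replicates.

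Among the unique regions, 1 stood far above the rest. The region downstream of C18A11.t2 (tRNA-Arg, chrX:8036311-8036410) had a pooled signal of 394, the 6th strongest of all 30000, with 187.9 in replicate 1 and 206.4 in replicate 2. Its summit was 382 bases from the 5′ end of the gene. The closest protein-coding start was that of xol-1, 4938 bases away, a gene that sets the sexual fate of the worm embryo. It was 100 bases wide, and a second, repeated region (chrX:8036401-8036756) that began inside it reached the gene itself with a signal of 63.4; both were matched to the same replicate 2 region, so the second is no separate measurement there.
The other 3 reproducible unique regions were weaker. The Y38E10A.t1 region (tRNA-Ala, chrII:12677921-12678276) had 78.4, with 26.2 in replicate 1 and 51.8 in replicate 2, and lay 289 bases upstream of the protein-coding gene Y38E10A.22. The C10G8.t1 region (tRNA-Gln, chrV:5329706-5330061) had 57.5, with 26.3 in replicate 1 and 28.8 in replicate 2. The K02A4.t1 region (tRNA-Ser, chrX:12889736-12890091) had 54.9, with 16.2 in replicate 1, where it ranked 9813th, and 30.03 in replicate 2, where it ranked 906th. Of these 4, the C18A11.t2 region alone ranked within the first 1030 in replicate 1 as well as in replicate 2, and the summits of the first 3 lay over 200 bases from the tRNA gene's 5′ end.
The next unique regions fell short of the reproducible list. T10B9.t1 (tRNA-Lys, chromosome II) had 51.1 upstream and 41.6 downstream, T10B10.t2 (tRNA-Gly, X) 41.5, T03E6.t1 (tRNA-Gln, V) 40.0 and Y57G11C.t1 (tRNA-His, IV), in an intron of eps-8, 39.9. R04E5.t5 (tRNA-Cys, X) had 36.8 and no region in replicate 2, F59C12.t2 (tRNA-Asp, X) had 36.4 and Y97E10C.t1 (tRNA-Thr, V) had 36.3.

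Regions on the 2 sides of the 500-base limit had signals in the same range. Just inside were regions at M02F4.t1, 489 bases away with a signal of 28.8, and at C48C5.t1 and C29F4.t1, each 498 bases away with 24.5 and 23.6. Just outside were regions at rte-3, T01B4.t1 and W07G4.t1, 501, 502 and 510 bases away with 25.3, 28.8 and 24.8. None of the 6 was reproducible.

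Summits lay on both sides of the genes, and reproducible ones were more often upstream or inside. The summit was upstream of the tRNA gene in 109 regions, of which 15 were reproducible (13.8%), inside it in 52, of which 8 were (15.4%), and downstream in 100, of which 6 were. Among repeated regions these shares were 21.7% of 60 upstream, 16.3% of 49 inside and 9.52% of 42 downstream. Among unique regions 2 of 49 upstream, 0 of 3 inside and 2 of 58 downstream were reproducible. Measured from the 5′ end along the strand, the median summit position was -9 bases for the 29 reproducible regions, with quartiles at -54 and 63, and 34 bases for all 261. The summit was inside or within 100 bases of the gene in 22 of the 29 and in 149 of the 261. Fragments of 150 to 350 bases and regions of mostly 356 bases limit how finely a position can be read, and a summit 50 bases from a box cannot be separated from one at it.

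**Figure D2:**
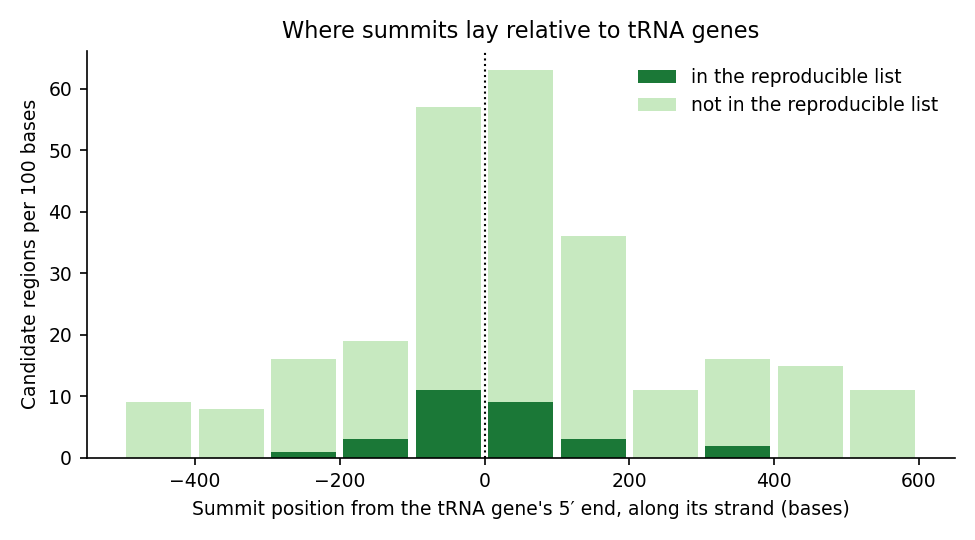
Number of candidate regions per 100 bases by summit position from the 5′ end of the nearest tRNA gene along its strand, with reproducible regions in dark green. The bin just upstream of the 5′ end held 57 regions, 11 of them reproducible, and the bin just after it held 63, 9 of them reproducible.

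Of 241 tRNA genes that were the nearest gene to a region, 20 were nearest to 2 regions, and 9 of these had 1 upstream and 1 downstream. The gap between the 2 summits ran from 200 to 772 bases with a median of 296. At C28G1.t1 the upstream region had a signal of 88.9 and the downstream one 52.1, and at C37A2.t1 (tRNA-Cys, in an intron of cye-1, the cyclin E gene) they had 70.8 and 30.5. At T10B9.t1 both were of unique sequence, with 51.1 and 41.6. In each replicate, 8 listed regions were matched to 2 pooled regions each, so members of such a pair are not independent.

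Regions on X were reproducible more often than regions on autosomes, a comparison that was not planned beforehand. On X, 22 of 127 regions were reproducible (17.3%, interval 11.7 to 24.8%), against 3.53% of all X candidates. On autosomes, 7 of 134 were (5.22%, interval 2.55 to 10.4%), against 3.41% of all autosomal candidates. There were 20 regions with 2 reproducible on chromosome I, 19 with 2 on II, 28 with 0 on III, 30 with 1 on IV and 37 with 2 on V. X held 75.9% of the 29 reproducible regions, 48.7% of the 261 regions and 45.1% of the 612 tRNA genes, and 18.8% of the other reproducible regions. Each replicate's own list gave the same order. In replicate 1, 22 of 142 X regions (15.5%) and 6 of 145 autosomal regions (4.14%) were among the strongest 1030. In replicate 2 they were 14 of 131 (10.7%) and 7 of 112 (6.25%), a smaller difference that rests on few regions. Over all regions of each list the shares were 3.50% on X and 3.42% on autosomes in replicate 1. In replicate 2 they were 3.42% and 3.44%.

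By the 90% rule, the difference between X and autosomes was in the repeated regions. Of these, 20 of 79 on X (25.3%) and 5 of 72 on autosomes (6.94%) were reproducible. Among unique regions the counts were 2 of 48 on X (4.17%) and 2 of 62 on autosomes (3.23%). When words inside tRNA genes were left out of the rule, 255 of the 261 regions counted as unique, including most that the main rule called repeated. The reproducible shares were then 17.7% of 124 regions on X and 4.58% of 131 on autosomes. These are nearly the same regions as the whole set, so they do not show whether the difference holds in unique sequence. Regions that overlapped a tRNA gene were reproducible in 21 of 92 cases on X (22.8%) and 5 of 87 on autosomes (5.75%). Inside tRNA genes the share was 6 of 26 on X (23.1%) and 2 of 26 on autosomes (7.69%), and from 1 to 100 bases away it was 11 of 47 on X (23.4%) and 3 of 50 on autosomes. Beyond 1000 bases it was 3.25% on X and 3.40% on autosomes.

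**Figure D3:**
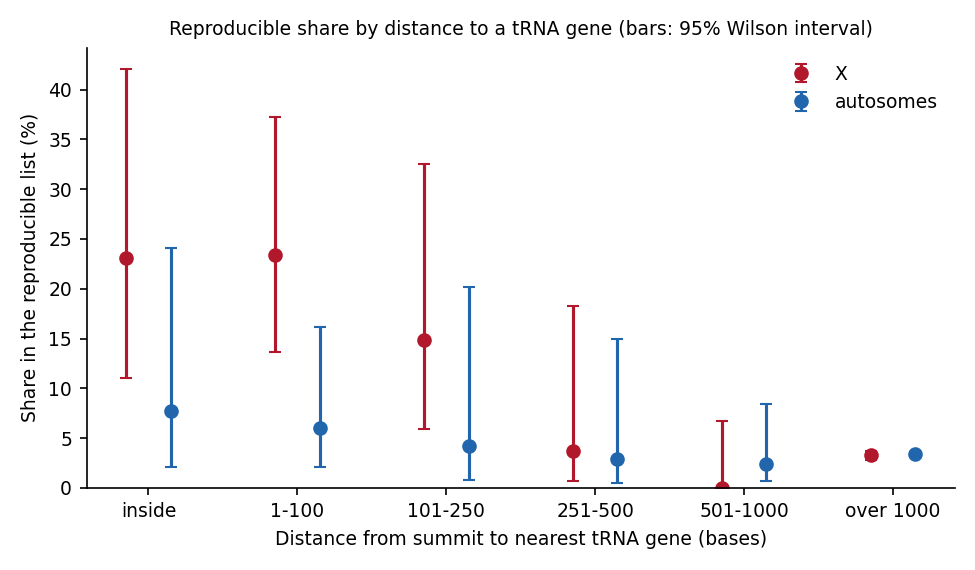
Share of candidate regions in the reproducible list (%) by distance from the summit to the nearest tRNA gene in bases, for X (red) and autosomes (blue), with 95% Wilson intervals as bars. Within 100 bases the X counts were 6 of 26 and 11 of 47 and the autosomal counts 2 of 26 and 3 of 50; beyond 1000 bases they were 3.25% and 3.40%.

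The same order was seen with the tRNA gene as the unit and among tRNA genes of identical sequence. A reproducible region lay near 26 of 276 X genes (9.42%, interval 6.51 to 13.4%) and 8 of 336 autosomal genes (2.38%, interval 1.21 to 4.63%), while any candidate region lay near 47.8% of X genes and 39.9% of autosomal genes. A region counted for every gene within 500 bases of it, and 6 of the 29 reproducible regions had more than 1 such gene. Genes are therefore not independent units, which the intervals leave out. In the 43 families of identical genes with copies on both, 19 of 185 X copies (10.3%) and 7 of 223 autosomal copies (3.14%) had a reproducible region. Only the gene sequence is the same between such copies, and their flanks were not matched. Reads from inside identical genes cannot always be placed, and whether signal was placed at the right copy was not tested. The X share was higher in 14 of these families, lower in 3 and equal in 26. Families with no reproducible region on X or autosomes count as equal. Any candidate region lay near 53.5% of the X copies and 43.0% of the autosomal copies. In 1 family of 15 identical tRNA-Glu genes, picked after its values were seen, 6 of the 8 X copies had a candidate region, 3 of them reproducible. None of its 7 autosomal copies had one. In a family of 25 identical tRNA-Lys genes the order was reversed for candidate regions: 3 of 10 X copies and 7 of 15 autosomal copies had one, none reproducible.

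By isotype, the amino acid a tRNA carries, 16 of 21 isotypes had at least 1 gene with a reproducible region. The 5 without were Met (20 genes), Thr (34), Trp (12), Val (31) and the single selenocysteine tRNA gene. Val had a candidate region at 18 of its 31 genes and Met at 10 of its 20, so these isotypes had candidates but no reproducible one. Glu had 5 of 41 genes, all on X. Ala had 4 of 34, Leu and Ser 3 of 39 each and Pro 3 of 42, while Gly, the largest isotype, had 1 of 55. Counts of this size overlap in their counting error, and no order among isotypes is read from them. By copy number, a reproducible region lay near 3 of 143 genes with no identical copy (2.10%), 8 of 152 in families of 2 to 9 (5.26%) and 23 of 317 in families of 10 or more (7.26%).

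**Figure D4:**
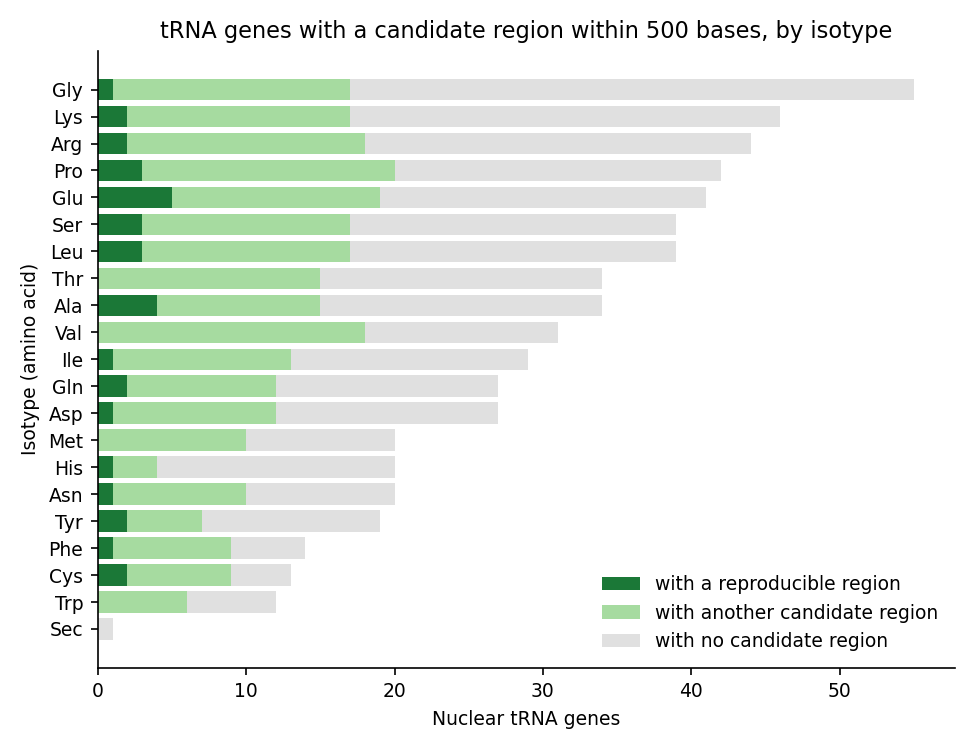
Number of nuclear tRNA genes of each isotype with a reproducible region (dark green), with another candidate region (light green) or with none (grey) within 500 bases. Glu had 5 genes with a reproducible region of 41, and Met, Thr, Trp, Val and Sec had none.

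The replicates ranked these regions alike in part. Over the 154 regions found in both, Spearman's rho between their signals was 0.434, against 0.348 over 14023 candidates found in both; the points share tRNA gene sequences and a control, and no p is given. It was 0.483 over 98 repeated regions and 0.188 over 56 unique ones. Of the 29 reproducible regions, 22 were among the strongest 1030 of replicate 1, 18 among those of replicate 2 and 12 among both (41.4%). Of the other 1001 reproducible regions, 625 were among both (62.4%). The median rank of the 29 was 441 in replicate 1 and 830 in replicate 2, against 522 and 511 for the others. The 29 thus stood higher in replicate 1 than in replicate 2. At rte-1 (tRNA-Glu, X), the signal was 52.6 in replicate 1, ranked 240th, and 12.03 in replicate 2, ranked 17146th. The median pooled signal of the 29 was 66.6, against 74.0 for the other reproducible regions.

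**Figure D5:**
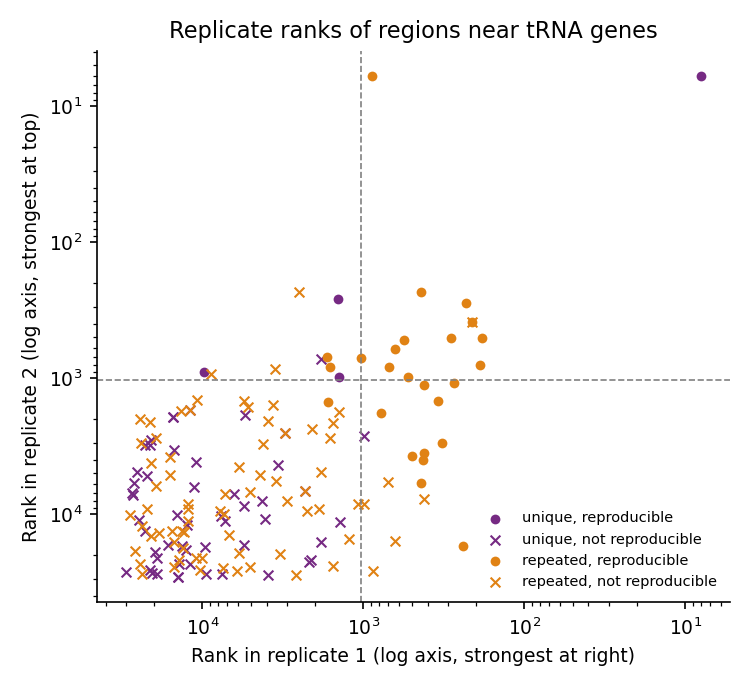
Rank in replicate 1 (x, log axis, strongest at right) against rank in replicate 2 (y, log axis, strongest at top) for the 154 regions near tRNA genes found in both, by sequence class and list; dashed lines mark rank 1030. The upper right corner of the plot, beyond both lines, holds the 12 reproducible regions strong in both, with the C18A11.t2 region farthest out, and 1 further region that was not reproducible.

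The share was about as large away from protein-coding gene starts. A start window was taken as 1000 bases before a protein-coding start and 500 bases after it, and it held the summit of 65 of the 261 regions (24.9%), against 29.4% of all candidates. Outside these windows, 21 of 196 regions near tRNA genes were reproducible (10.7%), against 2.45% of all candidates outside them. Of the 29 reproducible regions 8 were in such a window (27.6%), against 503 of the other 1001 (50.2%). By host, the tRNA gene lay in an intron of a protein-coding gene for 113 regions, of which 12 were reproducible, outside protein-coding genes for 144, of which 16 were, and in an exon for 4, of which 1 was. Near other genes of small RNAs, some of which use other promoters, the reproducible share was 12.4% of 185 regions for snoRNA genes, 26.3% of 38 for snRNA genes and 6.90% of 87 for miRNA genes.

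Short words around the summits were counted within 50 bases on either strand. The B box word GGTTCGA was within 50 bases of the summit in 16.5% of regions near tRNA genes and 0.75% of all candidates, and all 43 member regions that held it held it inside the tRNA gene, so it marks the gene and no separate site. The half-site AGGTCA was in 4.21% of the 261, against 2.48% of all candidates. It was in 10.3% of the 29 reproducible regions, against 2.40% of the other reproducible ones, but the 10.3% is 3 regions, 2 of which held the word inside the tRNA gene. Of all 11 members that held it, 4 held it inside the gene. GAGAGA was in 20.7% of the 29 and 28.9% of the other reproducible regions, against 7.80% of all candidates. Of the 6 regions near tRNA genes behind the first value, 1 held it inside the gene. AGACGC was in 13.8% of the 29 and 13.4% of the other reproducible regions, against 2.79% of all candidates. Of the 4 regions near tRNA genes behind the first value, 2 had it inside the gene, like 11 of all 22 members that held it. GCGCGC and CACGTG were in none of the 29, against 5.29% and 6.39% of the other reproducible regions. Over all candidates their shares were 0.80% and 1.90%. With 29 regions, 1 region is worth several percent, so these shares are descriptions. A word within 50 bases is no shown site.
The windows below are 101 bases centred on the summit, plus strand of ce11, and show where such words lay at 7 reproducible regions, first 5 with the words outside the tRNA gene and then 2 with the word inside it; capitals mark the words AGGTCA and GAGAGA, and the word AGACGC, on either strand.
C28G1.t1, tRNA-Glu, chrX:8835942-8836042: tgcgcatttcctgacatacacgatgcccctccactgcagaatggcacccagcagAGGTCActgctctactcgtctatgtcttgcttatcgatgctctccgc
C53C7.t2, tRNA-Ser, chrX:13046429-13046529: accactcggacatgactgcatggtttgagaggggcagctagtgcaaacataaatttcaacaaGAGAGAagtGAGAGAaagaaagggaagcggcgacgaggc
F41D9.t3, tRNA-Asn, chrX:8404341-8404441: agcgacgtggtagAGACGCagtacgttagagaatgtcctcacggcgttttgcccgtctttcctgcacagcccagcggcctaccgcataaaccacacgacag
R11.t1, tRNA-Tyr, chrX:16209867-16209967: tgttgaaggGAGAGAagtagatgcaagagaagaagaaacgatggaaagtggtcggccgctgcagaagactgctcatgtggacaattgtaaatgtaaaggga
K02A4.t1, tRNA-Ser, chrX:12889864-12889964: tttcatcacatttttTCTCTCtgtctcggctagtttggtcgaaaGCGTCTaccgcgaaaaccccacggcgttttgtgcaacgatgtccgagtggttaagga
F08G5.t1, tRNA-Arg, chrIV:12417920-12418020: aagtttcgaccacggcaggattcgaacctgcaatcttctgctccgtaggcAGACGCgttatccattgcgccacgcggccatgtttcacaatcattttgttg
T23F1.t1, tRNA-Lys, chrV:15465129-15465229: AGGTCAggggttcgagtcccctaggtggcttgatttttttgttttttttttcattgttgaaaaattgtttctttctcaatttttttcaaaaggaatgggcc
The AGGTCA at C28G1.t1, the AGACGC at F41D9.t3 and the GAGAGA at R11.t1 lay in windows that held 0 bases of the tRNA gene, whereas the windows at C53C7.t2 and K02A4.t1 reached 19 and 25 bases into it. The summit at C28G1.t1 is also 24 bases upstream of the start of the protein-coding gene C28G1.2. Median GC content near the summit was 47.5% for the 29 reproducible regions and 45.5% for the other 1001 reproducible ones. It was 43.6% for all 151 repeated regions near tRNA genes, and 34.7% both for all 110 unique ones and for all candidates.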

How the data were processed

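ChIP-seq of 2 biological replicates of 1 group was used as the authors' deposited peak lists on the ce11 build; the ce10 lists were not used. The signal of each region is the authors' deposited value from sample and control alignments, per the accompanying descriptions. The replicate lists carry no header, so the signal field was read by its position. The scale of the signal, the aligner, the caller and the IDR threshold are not given in the sources used here. Each candidate list holds 30000 regions.

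Regions were joined to tRNA genes of Ensembl release 115 (WBcel235, the ce11 build) by summit, with isotypes from RefSeq records matched for 612 of 612 genes, of which 607 had an isotype. Sequence was called unique when at least 90% of 31-base words of both strands occurred once in the genome. A pooled region was matched to the overlapping replicate region with the nearest summit. Named regions were the 12 unique and 8 repeated ones with the highest pooled signal, plus those at the 500-base limit; others were named after their values were seen. Members and lists were chosen with earlier results of these data known. The distance limit, sequence class, start windows and single replicates were varied. The step that marks repeated words was tested on simulated sequence. Python 3.11.15, numpy 2.4.6, pandas 2.3.3 and scipy 1.17.1 were used.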

Additional observations from a re-analysis of the deposited data

How the results depend on the processing

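The number of regions near tRNA genes was 261 and became 200 with a limit of 250 bases, 396 with 1000 bases and 179 when the region had to overlap the gene; each replicate's own list gave 287 (replicate 1) and 243 (replicate 2). The share in the reproducible list, 11.1%, was 7.83% with 1000 bases, since distant regions dilute it, and 3.45% when only its 515 strongest regions were counted, against 1.72% of all candidates. The median percentile of 67.5 became 74.7 with 250 bases, 60.8 with 1000 bases and 76.5 for overlapping regions, and 58.9 to 62.6 in the single-replicate lists. The unique share moved with its definition: 42.1% became 96.6% and 100% when 75% or 50% of words had to be found once, 97.7% with words outside tRNA genes and 59.0% with 50-base words. The counts by sequence class therefore hold for the 90% rule alone.

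The comparison of X with autosomes was not planned, and its alternatives were chosen after seeing the data. The X share of 17.3% and the autosomal share of 5.22% kept this order under each alternative. X lay between 10.7% and 21.0%, except for unique sequence by the 90% rule. There the values of 4.17% on X and 3.23% on autosomes rest on 2 regions each and show no clear order. The X values of 15.5% (replicate 1) and 10.7% (replicate 2) are a different measure. They are shares among the strongest 1030 of that replicate's own list. By words outside tRNA genes, which count 97.7% of the regions as unique, the shares were 17.7% on X and 4.58% on autosomes. That setting nearly repeats the whole set and gives no separate view of unique sequence. No paired analysis was possible because there is 1 group. Depth is unknown, so weak regions cannot be given an error.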
